A study of Mus musculus with 23 samples.

Results

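In embryonic fibroblasts, 9 regulator genes of mesenchymal development were followed here through a serum response. They were the forkhead genes Foxc1 and Foxc2, the HMG-box genes Sox4 and Sox11 and the bHLH genes Twist1 and Twist2. The zinc finger genes Snai1 and Snai2, and Mab21l2, completed them. The rule took every probe set (the group of probes that reports 1 transcript on an Affymetrix array) to which the platform's annotation gives one of 10 named symbols and no other. It found 12 of the 12422 probe sets tested, for 9 of the 8251 genes that have such a probe set. Sox9, the tenth name, has no probe set listed under its symbol alone and was not analysed here. The genes were selected on the serum differences of these same arrays, so those differences are given as descriptions, and nothing is read from the counts of limma calls on them.

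All cultures were primary fibroblasts of mouse embryos at embryonic day e14.5 (C57/BLACK6, ATF1 -/+), so the starved controls carried the same Atf1 genotype as the treated cells. Cultures near confluency were starved for 48 hours in 1% dialyzed serum. For the next 2 hours they had 4-thiouridine (200 µM) and tritiated cytidine, in 10% serum (treated) or in 1% serum (starved). 4-thiouridine is a uridine analogue that marks RNA made while it is present, and newly transcribed RNA is the thiolated RNA that bound an organomercurial matrix. The 23 arrays fall into 6 groups: newly transcribed RNA of treated and of starved cells (4 arrays each), amplified total RNA of treated cells (4) and of starved cells (3), and total RNA of treated and of starved cells (4 each). Each title gives a biological replicate number without saying what equal numbers share or whether cultures were separate, so p-values measure only the spread between these arrays. The label protocol of every array speaks of linear amplification, so the titles alone tell amplified from unamplified total RNA. Starved cells received the nucleosides too, so no group is free of them.

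As background, FOXC proteins are forkhead activators needed for somites, the heart outflow tract, the eye and blood and lymph vessels. SOX4 and SOX11 are closely related HMG-box activators of neural, cardiac and mesenchymal progenitors. TWIST proteins are basic helix-loop-helix factors that pair with E proteins and hold mesenchymal precursors in an undifferentiated state. SNAIL proteins (SNAI1 and SNAI2, also called Slug) bind the E-box CAGGTG and repress epithelial genes such as the E-cadherin gene. Twist and Snail factors together drive the epithelial-mesenchymal transition, in which epithelial cells become migratory. Mab21l2 is needed in mouse embryos for the eye and the ventral body wall.

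The RefSeq promoter table (build GRCm38.p6) holds 7 of the 10 named genes, and 3 of those promoters are shown. They belong to the genes of the table whose brightest probe set, brighter than the median of all, differed one way with serum in every same-numbered pair of newly transcribed and of total RNA. Foxc1, which also did so, is dim, and Sox4 and Sox11 did so on their dimmer probe set only. They are Snai1 (higher with serum), Twist1 (lower) and Mab21l2 (lower). Each run is the 250 bases before the transcription start, 5′ to 3′ on the gene's strand: chr2:167537945-167538194 (plus strand) for Snai1, chr12:33957421-33957670 (plus strand) for Twist1 and chr3:86548284-86548533 (minus strand) for Mab21l2. Capitals mark matches, on either strand, to the motifs named after the sequences.
Snai1: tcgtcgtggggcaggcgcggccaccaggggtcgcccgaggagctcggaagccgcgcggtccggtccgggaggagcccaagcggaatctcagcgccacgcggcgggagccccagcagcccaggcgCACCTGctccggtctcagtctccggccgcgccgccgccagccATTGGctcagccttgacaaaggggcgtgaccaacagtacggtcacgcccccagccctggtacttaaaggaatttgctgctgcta
Twist1: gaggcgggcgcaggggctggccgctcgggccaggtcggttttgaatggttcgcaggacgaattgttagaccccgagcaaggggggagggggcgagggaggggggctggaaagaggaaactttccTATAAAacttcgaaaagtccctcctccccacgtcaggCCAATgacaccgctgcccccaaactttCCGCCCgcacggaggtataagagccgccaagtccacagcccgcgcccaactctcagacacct
Mab21l2: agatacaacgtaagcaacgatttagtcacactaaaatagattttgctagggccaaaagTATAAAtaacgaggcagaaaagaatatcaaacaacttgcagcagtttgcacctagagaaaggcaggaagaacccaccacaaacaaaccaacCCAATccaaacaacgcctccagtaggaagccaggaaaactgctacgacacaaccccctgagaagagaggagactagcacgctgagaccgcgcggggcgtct
The motifs searched were the TATA element TATAAA, the GC box GGGCGG, the CCAAT box CCAAT and the Snail E-box CAGGTG, with the AP-1 site TGACTCA, the cyclic AMP response element TGACGTCA and the CArG box of serum response factor. The Snai1 window held 1 CAGGTG, read on the opposite strand, with its bases from -126 to -121, and 1 CCAAT. The Twist1 window held TATAAA with its first base at -126, CCAAT at -89 and 1 GC box at -62. In the Mab21l2 window TATAAA began at -192 and CCAAT at -101. All 7 members' windows held a CCAAT, a motif found in 33.85% of the 32851 promoter windows of the table. CAGGTG was found in 17.22% of those windows and TATAAA in 12.37%. None of the 7 windows held TGACTCA (4.46% of all windows), TGACGTCA (1.55%) or a CArG box (1.47%), which says only that these letters are not in these 250 bases. Base composition differed, with 70.0% G and C for Snai1 and 46.8% for Mab21l2, against a median of 52.4% over the table.

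Levels are normalized intensities, and differences are on the log2(intensity + 16) scale, on which dim probe sets show less than their full change. Probe sets have different probes, so levels of different genes are not compared. Over all arrays, 16 of 17 fibroblast markers had a mean at or above the median of all probe sets, as did 12 of 14 macrophage, 2 of 9 endothelial, 2 of 13 skeletal muscle, 6 of 12 neural and glial, 1 of 11 epithelial and 0 of 4 osteoblast markers. By their whole profiles the newly transcribed and amplified arrays formed 2 clusters. The first held the newly transcribed replicates 1 and 4 of both conditions, amplified treated replicates 1 and 4 and amplified starved replicates 1 and 3. In bulk RNA, fewer cells of a type and less RNA per cell cannot be told apart. The log2 ratio of the 3′ to the 5′ Gapdh control probe sets, a sign of shortened copies, averaged 2.16 ± 0.65 (SD, n = 8) in newly transcribed RNA, 1.55 ± 0.60 (n = 7) in amplified and -0.20 ± 0.11 (n = 8) in unamplified total RNA. In newly transcribed RNA it averaged 2.56 in the first cluster and 1.75 in the second. Summed macrophage markers ran from 1845 to 3571 in the first and from 4641 to 9287 in the second of these newly transcribed clusters. Neural and glial markers ran from 694 to 1063 and from 1512 to 2549, and fibroblast markers from 11920.1 to 16151 and from 16491 to 23366, in the same order. Sums of the other 4 lists overlapped.

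The 2 Snail genes differed in opposite directions with serum. Snai1 was higher and Snai2 lower in the treated array of all 4 pairs of newly transcribed RNA and all 4 of total RNA. Same-numbered amplified arrays did not pair, and number 3 sets arrays of different clusters against each other, so amplified RNA is given by group. In total RNA, Snai1 had 566, 1119, 1227 and 693 in treated cells, against 329, 434, 596 and 466 in starved cells (replicates 1 to 4, in that order throughout). The groups overlapped by 1 array, treated replicate 1, which lay below starved replicate 3. The mean log2 difference was 0.92 ± 0.28 (SE of the limma fit without a block, ± 0.15 with the replicate number as a block). Newly transcribed Snai1 had 49.3, 1064, 1599.9 and 276 in treated cells, against 38.4, 310.5, 410.2 and 195 in starved cells. Replicates 2 and 3 held most of this difference, with pair differences of 1.73 and 1.92, against 0.27 and 0.47 in replicates 1 and 4, and the mean was 1.10 ± 1.09 (± 0.31 with the block). Amplified Snai1 had 117, 411, 282 and 71.9 in treated cells and 79.1, 170.4 and 48.3 in starved cells (replicates 1 to 3), a difference of 0.91 ± 0.63.

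Snai2, by its mean over all arrays brighter than 97.2% of the probe sets, had 441, 385, 701 and 474 in total RNA of treated cells, against 874, 1083, 1312 and 1606 in starved cells. Every treated array lay below every starved one, and the difference was -1.26 ± 0.23 (± 0.16 with the block). In newly transcribed RNA it had 2077, 715, 1025 and 4082 in treated cells and 4327, 3473, 4390.3 and 5679 in starved cells, a difference of -1.47 ± 0.51 (± 0.31). Here treated replicate 4 lay above starved replicate 2, so the groups overlapped, while each treated array lay below its own partner. The amplified arrays had 1703, 247, 256 and 1076 in treated cells and 3542, 563 and 2317 in starved cells, a difference of -1.48 ± 0.90. Set pair by pair, the serum difference of Snai1 minus that of Snai2 was 0.94 to 4.00 in newly transcribed RNA and 1.72 to 2.79 in total RNA. Snai1 and Snai2 also differed in where their means were highest: Snai1 in total RNA of treated cells (9.77 ± 0.53, SD, on the log2 scale), and Snai2 in newly transcribed RNA of starved cells (12.11 ± 0.29). For each gene the step from this highest group to the next was larger than the spread of both, at 0.92 and 1.39. No further step down the order of either gene exceeded the larger spread of its neighbours. These orders set amplified beside unamplified total RNA, between which Snai1 differed by -2.15 and Snai2 by 0.37 (amplified minus unamplified). With unamplified total RNA left out, the mean of Snai1 was highest in newly transcribed RNA of treated cells (8.74 ± 2.09). The part of amplification in these orders was not tested.

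**Figure D1:**
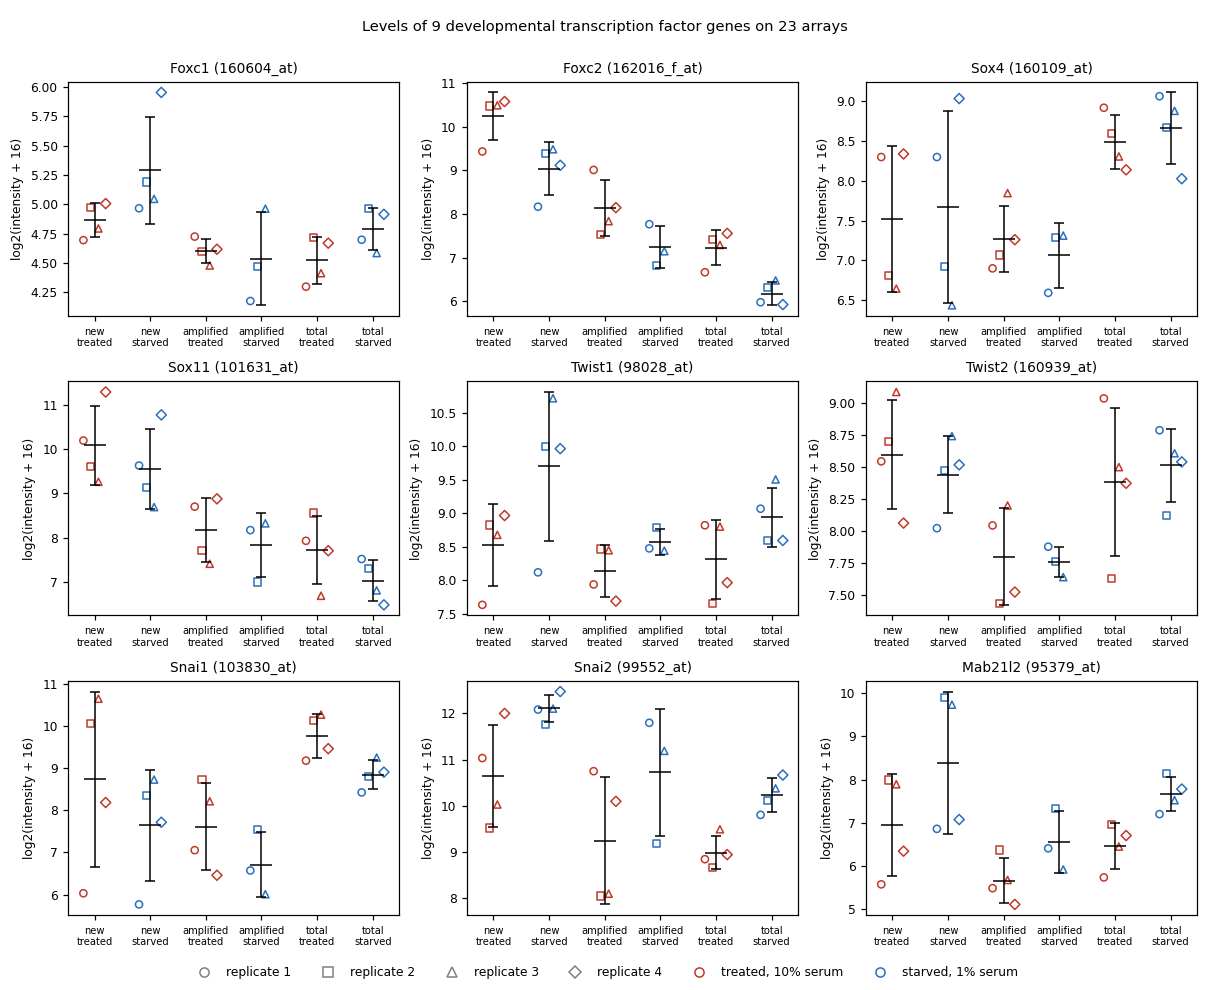
Log2(normalized intensity + 16) of the brightest probe set of each of the 9 genes (vertical axes, each with its own range) in the 6 groups, with treated groups in red and starved groups in blue. Symbols mark the replicate number, and bars show mean and SD. Snai2 and Mab21l2 are lower and Foxc2 higher on treated arrays of total RNA with no overlap, and Snai1 and Mab21l2 spread widely in newly transcribed RNA.

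The Twist pair differed as well. Twist1 was lower in the treated array of all 8 pairs (4 of newly transcribed, 4 of total RNA), while Twist2 had no common direction. Newly transcribed Twist1 had 182, 438, 393 and 484 in treated cells, against 262, 1009, 1667 and 983 in starved cells. Starved replicate 1 was the low array of its group and lay within the treated range, and the difference was -1.17 ± 0.56 (± 0.24 with the block). In total RNA it had 436, 186, 430.1 and 234 in treated cells and 521, 369, 710.2 and 370.4 in starved cells, overlapping groups with a difference of -0.63 ± 0.32 (± 0.13). Amplified Twist1 had 229, 338, 333 and 190.4 in treated cells and 339.9, 428 and 331 in starved cells. That difference, -0.43 ± 0.25, became 0.14 with intensities as deposited. The order of its 6 means ran from newly transcribed RNA of starved cells (9.70 ± 1.11) to amplified RNA of treated cells (8.14 ± 0.39), and no step between neighbours exceeded both spreads.

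Twist2, also called Dermo1 for its expression in dermis, had 357, 399, 528 and 251 in newly transcribed RNA of treated cells, against 244, 339.8, 412 and 350.5 in starved cells. In total RNA it had 509, 182, 346 and 316 in treated cells and 426, 262, 374 and 356 in starved cells. The serum differences were 0.16 ± 0.25 and -0.13 ± 0.29, both with intervals that include 0 (95%, -0.41 to 0.73 and -0.78 to 0.52), and with intensities as deposited both changed sign. Amplified Twist2 had 248, 157, 278 and 168 in treated cells and 219, 201 and 183 in starved cells. Pair by pair, the serum difference of Twist2 minus that of Twist1 was 0.54 to 2.38 in newly transcribed and 0.44 to 0.59 in total RNA.

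Among the forkhead genes, Foxc2 was higher with serum on both its probe sets, and Foxc1 was dim. Probe set 162016_f_at of Foxc2, whose suffix marks probes that related sequences may share, had 677, 1414, 1429.9 and 1519 in newly transcribed RNA of treated cells, against 272, 658, 702 and 540.0 in starved cells. Treated replicate 1 was the lowest of its group and fell between starved replicates 2 and 3, while every pair was higher with serum by 1.01 to 1.47. Its mean difference was 1.21 ± 0.37 (± 0.12 with the block). Total RNA gave 85.3, 154, 140.5 and 172 in treated cells and 46.8, 63.9, 72.9 and 44.5 in starved cells, with no overlap and a difference of 1.06 ± 0.22 (± 0.17). Amplified RNA gave 501, 169.5, 213 and 267 in treated cells and 202, 97.1 and 126 in starved cells, a difference of 0.89 ± 0.40.

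The other Foxc2 probe set, 102800_at, had 210.1, 283, 511 and 292 in total RNA of treated cells, against 102, 65.4, 158 and 117 in starved cells. All treated arrays lay above all starved ones, by 1.41 ± 0.30 on average (± 0.17). Newly transcribed RNA gave 169, 479, 665 and 463 in treated cells and 85.2, 278, 352 and 174 in starved cells, overlapping groups with all 4 pairs higher and a difference of 0.96 ± 0.51 (± 0.13). In amplified RNA it had 248, 232, 187 and 84.8 in treated cells and 229, 112 and 44.4 in starved cells, a difference of 0.63 ± 0.54. After the mean of each kind of RNA was taken out, the 2 probe sets correlated at 0.78 over the 23 arrays, which share their libraries. Their order of groups differed: on 162016_f_at both newly transcribed groups stood above all total RNA groups (means 10.25 ± 0.54 treated and 9.04 ± 0.60 starved), while on 102800_at total RNA of treated cells (8.34 ± 0.51) stood above newly transcribed RNA of starved cells (7.74 ± 0.82), by less than the larger spread.

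Foxc1, the close relative that acts beside Foxc2 in mouse embryos, had a mean brighter than 27.7% of the probe sets only. It read 9.91, 15.4, 11.8 and 16.1 in newly transcribed RNA of treated cells, against 15.3, 20.5, 17.1 and 45.9 in starved cells. Starved replicate 4 was the high array, and the difference was -0.42 ± 0.23 (± 0.16). Total RNA read 3.69, 10.3, 5.32 and 9.45 in treated cells and 9.97, 15.2, 8.01 and 14.2 in starved cells, a difference of -0.27 ± 0.14 (± 0.09), and amplified RNA 10.5, 8.19, 6.31 and 8.56 in treated cells and 2.10, 6.20 and 15.2 in starved cells. All 8 pairs of newly transcribed and total RNA were lower with serum, at levels where the pseudocount of 16 sets much of the size. In each of those 8 pairs the serum difference of Foxc2 162016_f_at exceeded that of Foxc1, by 0.99 to 2.41.

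Among the Sox genes, Sox11 was higher with serum in every pair of newly transcribed RNA. Sox4 was lower in every such pair on probe set 101430_at only. Sox11 had 1155, 763, 599 and 2485 on probe set 101631_at in newly transcribed RNA of treated cells, against 776, 544, 398 and 1732 in starved cells. Replicate 4 was the high array in both groups, and the 4 pair differences were close to each other, at 0.56, 0.47, 0.57 and 0.52 (mean 0.53 ± 0.56, ± 0.10 with the block). In total RNA it had 228, 362, 87.6 and 193 in treated cells and 168, 143, 96.7 and 73.9 in starved cells. There 3 of 4 pairs were higher and replicate 3 was not, with a mean of 0.69 ± 0.39 (± 0.25). Amplified RNA had 401, 193, 155 and 455 in treated cells and 273, 112 and 305 in starved cells, 0.34 ± 0.49. The dim probe set 93669_f_at, of 45.6% rank, had 21.0, 37.5, 20.7 and 22.9 in total RNA of treated cells and 20.4, 10.1, 14.6 and 15.9 in starved cells. These groups did not overlap, though pair 1 differed by only 0.03, and the mean was 0.40 ± 0.16 (± 0.18). In newly transcribed RNA it had 75.5, 73.6, 57.2 and 172 in treated cells and 59.4, 49.2, 37.5 and 118 in starved cells, a difference of 0.42 ± 0.37 (± 0.11), and amplified RNA ran from 22.9 to 32.7 in treated and from 10.1 to 25.3 in starved cells.

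Sox4, a gene that TGF-beta is known to raise in epithelial cells, had no common serum direction on its brighter probe set. That probe set, 160109_at, had 299, 96.0, 84.2 and 307 in newly transcribed RNA of treated cells, against 299, 105, 70.6 and 508 in starved cells. Over both groups replicates 1 and 4 lay at 299 to 508 and replicates 2 and 3 at 70.6 to 105. Total RNA gave 467, 372, 300.5 and 266 in treated cells and 519, 391, 455 and 245 in starved cells, and amplified RNA 103, 118, 214 and 137 in treated and 80.6, 141 and 143 in starved cells. For the 3 kinds in that order its serum differences were -0.15 ± 0.67, -0.17 ± 0.25 and 0.20 ± 0.30. Probe set 101430_at was lower with serum in all 8 pairs of newly transcribed and total RNA, with mean differences over the 3 kinds of -0.43 ± 0.70 (newly transcribed), -0.23 ± 0.30 (total) and -0.76 ± 0.38 (amplified RNA). Its newly transcribed arrays had 215, 52.5, 65.9 and 309 in treated and 328, 85.0, 79.3 and 398 in starved cells. Its total RNA arrays had 459.7, 361, 263 and 203 in treated and 522, 462, 289.6 and 251 in starved cells. Amplified, it had 39.6, 38.6, 48.7 and 84.5 in treated and 126, 49.2 and 140.4 in starved cells. With intensities as deposited, both Sox4 probe sets changed sign in total RNA (0.25 and 0.19).

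Mab21l2 was lower with serum in all 8 pairs of newly transcribed and total RNA. In total RNA it had 37.4, 109, 71.6 and 88.6 in treated cells, against 131, 268, 168 and 204 in starved cells. The groups did not overlap, the 4 pair differences ran from -1.46 to -1.07, and the mean was -1.20 ± 0.29 (± 0.11 with the block). Newly transcribed RNA had 31.8, 239, 222 and 65.4 in treated cells and 100.4, 936, 837 and 119 in starved cells. Replicates 2 and 3 were the high arrays of both groups, the pair differences ran from -1.90 to -0.73, and the mean was -1.44 ± 0.89 (± 0.21). Amplified RNA had 28.9, 67.0, 35.3 and 18.6 in treated cells and 69.2, 145 and 44.7 in starved cells, -0.89 ± 0.42.

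Read together over both kinds of RNA whose numbers pair, 9 of the 12 probe sets had all 8 pairs on one side. These were Foxc2 (both), Sox11 93669_f_at and Snai1 on the higher side, and Foxc1, Sox4 101430_at, Twist1, Snai2 and Mab21l2 on the lower side. Over all probe sets, all 8 pairs were higher in 2.92% and lower in 3.45%. The treated and starved groups did not overlap for 5 of 12 probe sets in total RNA (both of Foxc2, Sox11 93669_f_at, Snai2 and Mab21l2), where 2.95% of all probe sets did not. They overlapped for all 12 in newly transcribed RNA (3.82% of all apart) and in amplified RNA (2.41% of all apart). The serum response chose these genes, so nothing is read from these counts. Markers of other cells differed with serum too. Of 14 macrophage markers 12 were positive in newly transcribed RNA (median 0.45) and 14 in total RNA (median 0.22). Limma with the replicate block called 0 of them in either kind. Below an unadjusted p of 0.05 were 8 and 2 of them, and 2691 and 1333 of all 12422 probe sets. In newly transcribed RNA the same fit called 3 fibroblast markers higher and 1 lower. It also called 1 skeletal muscle and 1 neural and glial marker higher there, and 1.74% of all probe sets. In total RNA it called 1 neural and glial marker higher, 0 of the other marker lists and 0.483% of all. The summed macrophage level was higher in the treated array of 6 of the 8 pairs, as were the fibroblast and endothelial sums. Epithelial and osteoblast sums were higher in 5 pairs, and skeletal muscle and neural and glial sums in all 8. Within these last lists the genes were mixed. Of 13 skeletal muscle markers 9 were positive in newly transcribed RNA (median 0.03) and 7 in total RNA (median 0.01). Of 12 neural and glial markers 6 (median -0.001) and 8 (median 0.03) were positive, in the same order. In newly transcribed RNA the skeletal muscle sum was 347, 1109.7, 1133 and 549 in treated cells, against 185, 307, 219 and 211 in starved cells. The part of other cells in the serum differences was not tested.

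A limma fit without a block called 0 of the 12 probe sets in newly transcribed RNA, where it called 0% of all probe sets (2 of the 12 and 800 of 12422 had an unadjusted p below 0.05). In total RNA it called 0 of 12 and 0.121% of all, with 6 of the 12 and 614 of all below that unadjusted p. In amplified RNA it called 0 of 12 and 0% of all, with 0 of the 12 and 175 of all below it. With the replicate number as a block, limma called 3 of 12 in newly transcribed RNA (both probe sets of Foxc2 higher, and Mab21l2 lower), where 1.74% of all were called. In total RNA it called 2 of 12 (Foxc2 102800_at higher and Mab21l2 lower), where 0.483% of all were called. As these differences chose the genes, the counts are no evidence about them. Each of these block calls was lost when any 1 of the 4 pairs was left out, which leaves 3 pairs, and with intensities as deposited. Within the clusters of newly transcribed arrays, replicates 2 and 3 held the larger differences of Snai2, Mab21l2 and Twist1. Snai2 differed by -2.26 and -2.08 there, against -1.05 and -0.47 in replicates 1 and 4, and Mab21l2 by -1.90 and -1.84, against -1.28 and -0.73. For Twist1 the values were -1.18 and -2.04, against -0.49 and -0.998. Foxc2 162016_f_at differed by 1.09 and 1.01 there, against 1.27 and 1.47. The difference of Foxc1 was largest in replicate 4 (-0.95, against -0.27 to -0.22 in the others). That of Sox4 101430_at was -0.58 in replicate 1 and nearly the same in replicate 2. The part of 3′ bias and of macrophage, neural and fibroblast RNA, which differ between these clusters, was not tested.

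**Figure D2:**
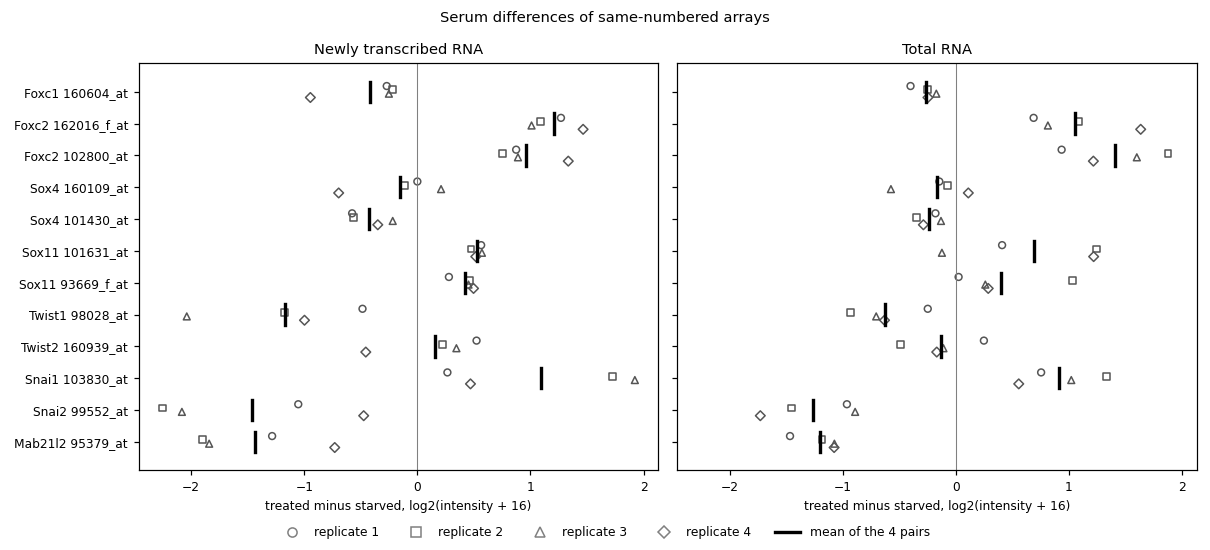
Treated minus starved difference of each same-numbered pair of arrays, in log2(normalized intensity + 16), for the 12 probe sets (vertical axis) in newly transcribed RNA (left) and total RNA (right). Symbols mark the replicate, and the short vertical line is the mean. All 4 pairs of Snai1 lie right of 0 and all 4 of Snai2 left of it in both panels.

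The serum difference in newly transcribed RNA minus that in total RNA was -0.55 (Twist1) to 0.29 (Twist2) over the 12 probe sets. Limma called 0 of 12 and 0% of all probe sets for it, with 0 of the 12 and 299 of all below an unadjusted p of 0.05. With the block, the 95% intervals were -0.66 to 1.02 for Snai1, -1.07 to 0.65 for Snai2, -1.22 to 0.13 for Twist1, -0.81 to 0.33 for Mab21l2 and -0.95 to 0.06 for Foxc2 102800_at. All 5 intervals include 0, but a missed threshold does not show the responses in new and in total RNA to be equal.

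The next comparison asked which genes stand out among the RNA made in the last 2 hours, relative to amplified total RNA of the same serum condition. All 12 probe sets, of 9 genes, were higher in newly transcribed RNA of treated cells, as were 52.2% of all probe sets. The members differed by 0.25 to 2.12, with a median of 1.12 against 0.02 over all probe sets. Newly transcribed and amplified arrays also differ in average Gapdh 3′ to 5′ ratio, as given above, and its part in these differences was not tested. Limma without a block called 1 of 12, Foxc2 162016_f_at, and 4.05% of all probe sets (1.22% higher and 2.83% lower). It had 677, 1414, 1429.9 and 1519 in newly transcribed RNA against 501, 169.5, 213 and 267 in amplified RNA. The groups did not overlap (true of 11.1% of all probe sets), and the difference was 2.12 ± 0.38 (limma adjusted p = 0.0255). Taking intensities as deposited ended this call, as did leaving out 1 array in 6 of 8 cases, namely without newly transcribed replicates 2, 3 or 4 or amplified replicates 2, 3 or 4. Pair 1 differed by 0.42 and the other pairs by 2.44 to 2.95.

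The numbers of the treated newly transcribed and amplified arrays pair, and with the replicate number as a block limma called 6 of 12 probe sets, all higher, and 21.1% of all (11.1% higher and 10.1% lower). With intensities as deposited it called 0 of 12. Sox11 101631_at was higher by 1.91 ± 0.18 (limma adjusted p = 0.0038, and 0.0904 without the block), with 1155, 763, 599 and 2485 in newly transcribed RNA against 401, 193, 155 and 455 in amplified RNA. Sox11 93669_f_at, Twist2 and Snai2 also rose, by 1.27 ± 0.21, 0.80 ± 0.18 and 1.40 ± 0.30 (limma adjusted p = 0.0118, 0.0269 and 0.0238). Mab21l2 rose by 1.29 ± 0.34 (limma adjusted p = 0.0445) and Foxc2 162016_f_at by 2.12 ± 0.42 (0.0194). In all 6 cases all 4 pairs were higher, as in 20.9% of all probe sets. Without replicate 1 the count was 8, and without replicates 2, 3 or 4 it was 1, 2 and 2, where Sox11 was called each time. Sox4 was split, with 1.10 on 101430_at, where replicates 1 and 4 differed by 2.05 and 1.69 and replicates 2 and 3 by 0.33 and 0.34. Its other probe set had 0.25, with 2 of 4 pairs lower, and this value fell below 0 when newly transcribed replicate 1 or 4 was left out.

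In starved cells all 12 probe sets were likewise higher in newly transcribed RNA, as were 48.2% of all probe sets. The members differed by 0.61 to 1.84, with a median of 1.03 against -0.01 over all probe sets. Limma called 0 of 12 and 3.17% of all, with 6 of the 12 and 2265 of 12422 below an unadjusted p of 0.05. Foxc2 162016_f_at had 272, 658, 702 and 540.0 in newly transcribed RNA against 202, 97.1 and 126 in amplified RNA, groups that did not overlap, as for 16.6% of all probe sets (1.80 ± 0.38, limma adjusted p = 0.0560). Sox11 101631_at differed by 1.72 ± 0.55 (limma adjusted p = 0.151) and Mab21l2 by 1.84 ± 0.88 (0.330). The numbers of the starved arrays do not pair. A median scaling, or leaving out dim probe sets, brought Foxc2 past the threshold.

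**Figure D3:**
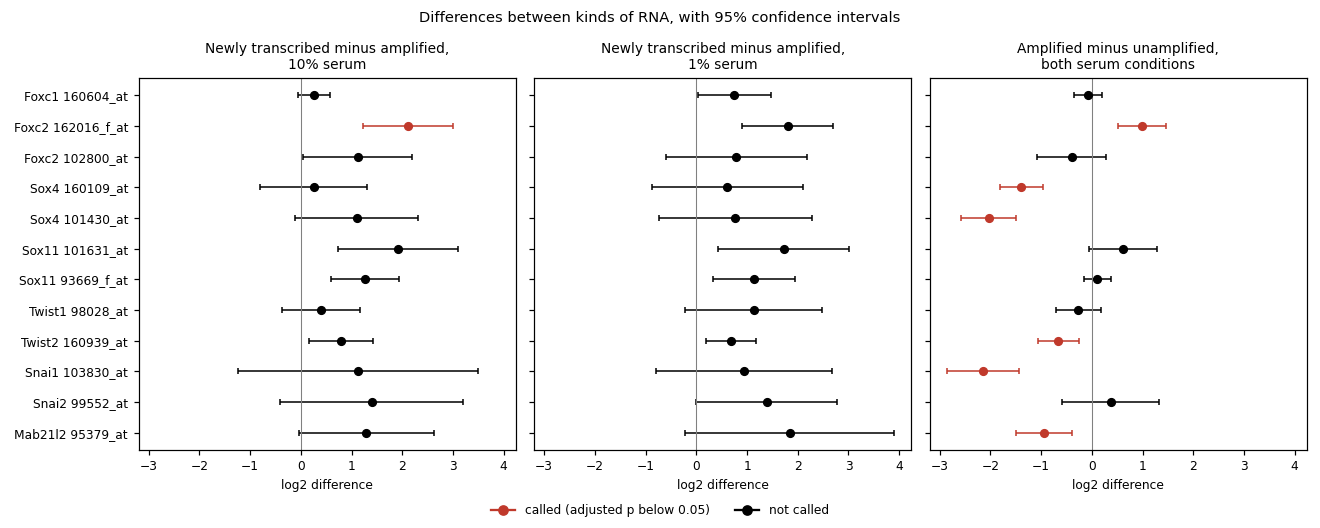
Log2 differences between kinds of RNA for the 12 probe sets (vertical axis), with 95% confidence intervals of the limma fits without a block; red points passed an adjusted p of 0.05. The panels show newly transcribed minus amplified RNA in 10% serum and in 1% serum, where all points lie right of 0, and amplified minus unamplified total RNA, where Snai1 and Sox4 lie farthest left.

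Amplified and unamplified total RNA differed for 6 of 12 probe sets in limma without a block, 1 higher and 5 lower in amplified RNA, against 20.3% of all probe sets (10.5% higher and 9.76% lower). Snai1 fell by 2.15 ± 0.33 on the log2 scale (limma adjusted p = 0.0004), and its 7 amplified arrays, at 48.3 to 411, included 1 within the range of the 8 unamplified ones, 329 to 1227. Sox4 fell by 2.04 ± 0.25 on 101430_at (0.0001) and by 1.39 ± 0.20 on 160109_at (0.0003). Mab21l2 fell by 0.94 ± 0.25 (limma adjusted p = 0.0172) and Twist2 by 0.66 ± 0.19 (0.0241). The Twist2 call was lost without amplified starved replicate 3 and with arrays scaled to 1 median. With intensities as deposited the calls of Twist2, Mab21l2, Foxc2 and Sox4 160109_at were lost, and those of Snai1 and Sox4 101430_at stayed. Foxc2 162016_f_at rose by 0.98 ± 0.22 (limma adjusted p = 0.0061), while 102800_at of the same gene differed by -0.40 ± 0.32 (0.426). These arrays also differ in 3′ to 5′ ratio, as given above, and its part in the differences was not tested. The Foxc2 probe sets, of which only 162016_f_at was called, read the same RNA on the same arrays.

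The newly transcribed arrays also differed across serum conditions. Between the 4 arrays of the first cluster and the 4 of the second, each holding 2 treated and 2 starved arrays, Sox4 was higher in the first on both probe sets (log2 differences of 1.91 and 1.79) and Sox11 101631_at by 1.30, with no overlap. Snai1 and Mab21l2 were lower in the first cluster, by differences of -2.53 and -2.41, also with no overlap. Snai1 read 38.4 to 276 in the first cluster, against 310.5 to 1599.9 in the second, and Mab21l2 read 31.8 to 119, against 222.0 to 936. The clusters come from the same values, so a lack of overlap between them is only a description. How many of all probe sets were apart in the same way was not counted, so nothing is read from it about these genes. For Sox4, Sox11, Snai1 and Mab21l2 the difference between the clusters exceeded, in size, the mean serum difference in the same RNA. The same held for Foxc2 102800_at (-1.10 between the clusters, 0.96 with serum) and Twist2 (-0.46 and 0.16), though their clusters overlapped. It did not hold for Foxc1, Twist1, Snai2 or the other Foxc2 probe set.

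Related genes were read in the serum fits with the replicate block, by the brightest probe set of each gene. The lists of related genes were chosen with earlier results of these data known, so nothing is read from their counts here or below. Over all 12422 probe sets these fits called 1.74% for newly transcribed RNA (2691 below an unadjusted p of 0.05) and 0.483% for total RNA (1333). Amplified arrays do not pair by number, so the fit without the block was read there, and it called 0% (175). Of 36 measured relatives in the same families (forkhead, SOX, Twist-type bHLH and Snail genes) limma called 0 in newly transcribed RNA (12 below an unadjusted p of 0.05) and 0 in total RNA (3 below it). Their brightest members were Scx, a bHLH factor of tendon (0.59 ± 0.22 in newly transcribed RNA), and Foxo4 (0.40 ± 0.16). Among 35 other mesenchymal patterning factors 4 were lower in newly transcribed RNA and 0 higher: Nr2f1 by -1.34 ± 0.18, the zinc finger gene Zic1 by -0.98 ± 0.11, the T-box gene Tbx15 by -0.96 ± 0.11 and the Hedgehog pathway factor Gli2 by -0.87 ± 0.14. The median of that list was -0.12, against 0.01 over all probe sets, and 11 of 35 were positive. Klf4 and Prrx2, the brightest of them, had 0.34 ± 0.17 and -0.19 ± 0.13. Limma called 0 of that list in total RNA, with 13 below an unadjusted p of 0.05.

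Of 16 partners and antagonists of Twist and Snail proteins, limma called 0 in newly transcribed RNA (4 below an unadjusted p of 0.05), with a median of -0.17 and 4 positive. In total RNA 1 rose, Id1, an inhibitor that binds E proteins (0.97 ± 0.09), while Id3 had 0.26 ± 0.15 and the kinase gene Lats2 0.14 ± 0.13. Of 22 junction and mesenchymal genes that Snail, Twist and Zeb factors are known to repress or raise, limma called 0 in either kind (5 and 1 below an unadjusted p of 0.05), with a median of 0.02 for newly transcribed RNA and of -0.07 for total RNA. Their brightest genes, Acta2 and Postn, had 0.28 ± 0.12 and -0.51 ± 0.12 in newly transcribed RNA. Of 15 cartilage genes controlled by SOX9, limma called 0 in either kind (5 and 2 below that unadjusted p), and Col11a1 had -0.58 ± 0.18 and Col9a2 0.27 ± 0.16 in newly transcribed RNA. In amplified RNA limma without the block called 0 genes of these 5 lists. Below an unadjusted p of 0.05 were 2 of the 35 patterning factors, 1 of the 22 junction and mesenchymal genes and 0 of the other lists.

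The ID genes, whose products bind E proteins and keep them from TWIST, were also higher in newly transcribed than in amplified RNA of treated cells. With the block, 7 of the 16 partners rose and 1 fell, where 11.1% of all probe sets rose and 10.1% fell. Id4 rose by 1.39 ± 0.16 (limma adjusted p = 0.0050), Id1 by 1.17 ± 0.17 (0.0081), Id2 by 1.07 ± 0.14 (0.0062) and Id3 by 1.00 ± 0.15 (0.0087), and Sin3a, Lats2 and Ezh2 by 1.00, 0.97 and 0.75, while Hdac1 fell by 0.90. In the same fit 4 of the 35 patterning factors rose (Msx2, Klf4, Tbx3 and Tbx15) and 1 fell (Tead2), with a list median of 0.40. Of the 36 family relatives 3 rose (Foxp1, Foxf1 and Hand1) and 0 fell. Of the 22 junction and mesenchymal genes 1 rose (Tjp1) and 2 fell: the matrix gene Postn fell by 1.82 ± 0.18 (limma adjusted p = 0.0042) and Mmp2 by 1.05 ± 0.18 (0.0123). Of the 15 cartilage genes 0 rose and 2 fell (Col11a1 and Matn4). Among the cell type markers 6 of 17 fibroblast and 5 of 14 macrophage genes fell and 0 of either rose, and their part in these differences was not tested. Without the block limma called 0 of the partners, patterning factors, family relatives and cartilage genes, and 4.05% of all probe sets. It called 2 junction and mesenchymal, 2 fibroblast and 1 macrophage gene, all lower. With the block and intensities as deposited it called 0 of all 12422 probe sets. The lists were chosen with earlier results of these data known, so nothing is read from these counts.

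The genes whose levels ran most like the called members were found by Pearson correlation over the 23 arrays after the mean of each kind of RNA was taken out, among 5474 genes. The arrays share serum condition, cluster and amplification, so these values describe only these libraries. For Mab21l2 they were Rnf181 (0.94), Maf1 (0.88) and Bid (0.84). For Foxc2 162016_f_at they were Spred2 (0.81), Phlda1 (0.80) and Has1 (0.79), and for Foxc2 102800_at they were Junb (0.84), Rab3ip (0.81) and Slc66a2 (0.81). The 2 probe sets of Sox4 correlated at 0.76 and those of Sox11 at 0.84 on the same measure.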

How the data were processed

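The authors deposited a table of linear intensity values, 12488 Affymetrix probe sets by 23 arrays, in which 42 values are 0. The program by which the authors summarised and scaled these intensities is not given in the sources used here. Per the labels' protocols, RNA was reverse-transcribed, amplified and labelled with biotin by a T7-based method. The 66 control probe sets were left out, the arrays were quantile normalized together, and log2(intensity + 16) was taken, since median raw intensities ran from 7.4 to 75.4. Depth does not apply to arrays, and their number limits the precision.

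Gene names came from the platform annotation: 10833 tested probe sets had 1 symbol, 396 several and 1193 none listed. All probe sets of the members are given, and where 1 value per gene was needed the brightest stood for it. In the other lists the called genes and the 2 brightest are named, and likeness was computed for members called in a serum fit. The members, the 5 related lists and the 7 marker lists were chosen with earlier results of these data known.

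Each two-sided test was limma's moderated test (limma 3.58.1, R 4.3.3) on the arrays of the kinds compared. P-values were adjusted by Benjamini-Hochberg across the 12422 probe sets left, at a threshold of 0.05; the code was tested on simulated data. Intervals are at 95%. Same-numbered arrays were correlated on their deviations from group means, over all probe sets, and a comparison counted as paired where every value exceeded 0.1. Newly transcribed treated and starved arrays paired (0.80, 0.80, 0.76 and 0.70), as did those of total RNA (0.70, 0.23, 0.47 and 0.57) and the treated newly transcribed and amplified arrays (0.56, 0.73, 0.71 and 0.69). Amplified treated and starved arrays did not (0.69, 0.76 and -0.47). The pairing comes from the data. Alternatives were other scalings, pseudocounts, filters, variance settings, the block and leaving arrays out. Promoters came from the RefSeq table of GRCm38.p6; no genome was used.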

Additional observations from a re-analysis of the deposited data

Results flagged for a closer look

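In newly transcribed RNA of treated cells, replicate 1 of Foxc2 162016_f_at, at a normalized intensity of 677, lay far below the other 3 arrays of its group, at 1414 to 1519. In total RNA of treated cells, replicate 2 of Sox11 93669_f_at, at 37.5, lay far above the other 3, at 20.7 to 22.9. Both gaps passed Dixon's 95% value for 4 samples, at ratios of 0.911 and 0.842 of the range. The test was made 60 times, for 12 probe sets in the 5 groups of 4 arrays, and chance alone marks about 1 test in 20. The 2 gaps flagged among the 60 tests are no more than that share.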

How the results depend on the processing

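Counts are of the 12 member probe sets called by limma. With the replicate number as a block, where the numbers pair, the serum response in newly transcribed RNA had 3 (0 without the block), and with the block together with another setting, chosen after seeing the data, 3 with median scaling, 2 with a pseudocount of 64, 7 without dim probe sets and 4 with trended, robust variances. In total RNA the block gave 2 (0 without it), and with the same settings 3, 1, 5 and 5. In both kinds the block with intensities as deposited, with a pseudocount of 1 or without any 1 pair gave 0. Newly transcribed against amplified RNA of treated cells had 1, which became 0 with intensities as deposited and 0 to 1 without single arrays. The block gave 6, and with it 0 as deposited, 6 with median scaling, 4 with either pseudocount, 7 without dim probe sets, 7 with trended variances and 1 to 8 without single pairs. In starved cells the count of 0 became 1 with median scaling or without dim probe sets, and the block, whose numbers do not pair, left 0. Amplified against unamplified RNA had 6, 2 as deposited, 5 with median scaling and 5 to 6 without single arrays; a block of replicate number and serum, chosen after seeing the data, gave 6 and 3 to 8 without single pairs. The block changed no call in the serum response of amplified RNA or in the difference of responses. With intensities as deposited the median serum difference of all probe sets moved to -0.18 (newly transcribed), 0.21 (total) and 0.25 (amplified RNA). The cause of each change of count was not tested. Of 84 single differences 28 changed sign under at least 1 alternative, and 0 of these 28 were among the 17 called with or without the block.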
